A study of Homo sapiens with 8 samples.

Results

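The 37 genes described here encode components of the human centromere and kinetochore. They were taken by name from a list of known components, with no cut on a measured value. The list was chosen with earlier results of these data known. All 37 were found among the 38148 genes of the deposited table, and all 37 passed the filter on low values that 14219 genes passed. The list holds 4 genes for the centromeric histone CENPA and its loading, 14 for the inner kinetochore, 10 for the outer kinetochore, 6 for the corona and 3 for the SKA complex. Poly(A) mRNA was sequenced from HT29, a colorectal cancer cell line with an activating BRAF mutation, after selumetinib, an inhibitor of the kinases MEK1 and MEK2, was given at 1 µM for 24 h or was not given. All cells, untreated ones included, were fixed with glyoxal, stained for the G2 and mitosis protein CCNB1 (Cyclin B1) and sorted into a CCNB1-negative and a CCNB1-positive fraction. This gave 4 groups of 2 libraries, namely untreated CCNB1-negative, untreated CCNB1-positive, selumetinib CCNB1-negative and selumetinib CCNB1-positive. The labels do not say whether the libraries of a group came from separate cultures, so the p-values measure the spread between these libraries, which may be technical in part.

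The labels of the samples disagree. In each of the 8 libraries the title gives the other treatment and the other fraction from those in the short description, and the stated growth medium follows the title. Groups here follow the descriptions, which are the column names of the table. If the titles were right, the drug response given below for one fraction would belong to the other fraction with its sign turned, the fraction differences of untreated and of treated cells would swap, with their signs turned, and the difference of the responses would stay as it is. CCNB1 mRNA itself was higher in the fraction described as positive, by 2.09 ± 0.21 (log2, SE) in untreated and by 5.08 ± 0.21 in treated cells, and 10 of 12 output genes of the ERK pathway were lower in the libraries described as treated in each fraction, where 35.8% (CCNB1-negative) and 27.3% (CCNB1-positive) of all genes tested were called lower. On the log2 scale EGR1 was higher in both fractions (1.17 and 1.58), and SPRED2 was higher in the negative one (0.72) and not called in the positive one (0.45, adjusted p = 0.064). Between 12696860 and 23916160 reads fell on genes in a library. The mitochondrial genome took between 11.92% and 14.79% of reads in treated libraries against 4.44% to 7.80% in untreated libraries, and the nuclear RNA MALAT1 took 2.01% to 4.42% against 0.30% to 0.39%. The part of these shifts in the results was not tested, beyond the scaling without both that is given with the results it changed. All 7 colon epithelial markers passed the filter, and their summed level was 9930 to 11000 RPM (reads scaled to library size) in untreated CCNB1-negative, 9980 to 10100 in untreated CCNB1-positive, 4580 to 6510 in treated CCNB1-negative and 6140 to 8250 in treated CCNB1-positive libraries. On treatment EPCAM fell in both fractions (log2 −1.34 and −0.83), KRT8 and KRT18 fell in CCNB1-negative cells (−1.22 and −1.11), and CDX2 (1.06 and 1.14) and VIL1 (0.73 and 0.58) rose in both. Of 8 markers of blood, endothelial and stromal cells only COL1A1 passed. It rose 3.51-fold in CCNB1-negative and 4.57-fold in CCNB1-positive cells (log2 SE 0.49 in each), on 6 to 107 reads in a library. CD14, which did not pass, went the other way. Its mean log2 level was 5.74 untreated and 2.87 treated in CCNB1-negative libraries, and 5.45 and 3.71 in CCNB1-positive ones. The summed level of those 8 was 3.56 to 4.46 RPM in untreated CCNB1-negative, 3.59 to 4.26 in untreated CCNB1-positive, 3.94 to 4.79 in treated CCNB1-negative and 6.52 to 7.71 in treated CCNB1-positive libraries, with no marker at 0 in all libraries. The part of these markers in the results was not tested.

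The kinetochore is built on chromatin that carries CENPA, a histone H3 variant placed there by the chaperone HJURP with the MIS18 proteins. The constitutive centromere-associated network (CCAN) sits on this chromatin through the cell cycle and recruits the KMN network (KNL1, MIS12 complex and NDC80 complex), whose NDC80 complex holds microtubules together with the SKA complex, while a fibrous corona with the RZZ complex and CENPE forms on unattached kinetochores in early mitosis. Many of the genes are transcribed most in G2 and mitosis, when CCNB1 is made. In a sorted bulk sample, fewer cycling cells and less RNA of a gene per cell cannot be told apart.

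Kinetochore transcripts were low in one group of the 4, CCNB1-negative cells under selumetinib. In CCNB1-negative cells, 33 of 37 genes fell with selumetinib and 1 rose (CENPT), against 35.8% lower and 38.2% higher among all genes tested (limma with a mean-variance trend, adjusted p under 0.05, which defines a call throughout). Their median log2 fold change was −2.31 beside 0.05 over all genes tested, 31 genes were past 2-fold lower and 23 past 4-fold lower. In CCNB1-positive cells, 16 fell, 3 rose (CENPP, CENPT and KNL1) and 18 did not pass the test, against 27.3% lower and 38% higher of all genes, and the median was −0.31 beside 0.17. All but CENPH and CENPT were within 2-fold there. With reads scaled to nuclear genes other than MALAT1, the split in CCNB1-positive cells became 7 lower and 7 higher. Of all 14219 genes tested, that scaling called 2614 lower and 6676 higher there. The share of the 37 genes called lower was thus close to that of all genes, and the share called higher was smaller. With limma-voom the split was 15 lower and 6 higher, beside 3434 and 6075 of all genes. In CCNB1-negative cells it was 31 lower and 2 higher under each. Of all genes, 3854 were lower and 6588 higher there under the nuclear scaling, and 4489 and 6023 with limma-voom. The nuclear scaling moved the median of all genes by 0.31 in the negative and 0.25 in the positive fraction.

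The 2 fractions lay closer together without the drug than with it. In untreated cells 11 genes were higher in CCNB1-positive cells and 2 (DSN1 and CENPU) were lower, against 1.36% and 1.51% of all genes, with a median of 0.42 beside −0.06. In treated cells 34 genes were higher and 0 lower, against 13.8% and 7.87% of all genes, with a median of 2.25 beside 0.02. The difference of the responses, tested as an interaction, was called for 29 genes, all toward a higher response in CCNB1-positive cells. For KNL1 and CENPP the response there was a called rise. Of all genes, 4.99% were called in that direction and 0.345% in the other, and the median was 2.16 beside 0.11. Among the listed genes, none was called lower in treated CCNB1-positive than in treated CCNB1-negative cells, and none had a called negative interaction. Both hold for limma on the log2 values and for limma-voom. In these comparisons no listed gene was lower at an unadjusted p under 0.05 by either tool. The comparisons share libraries, so their values are set side by side only.

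**Figure D1:**
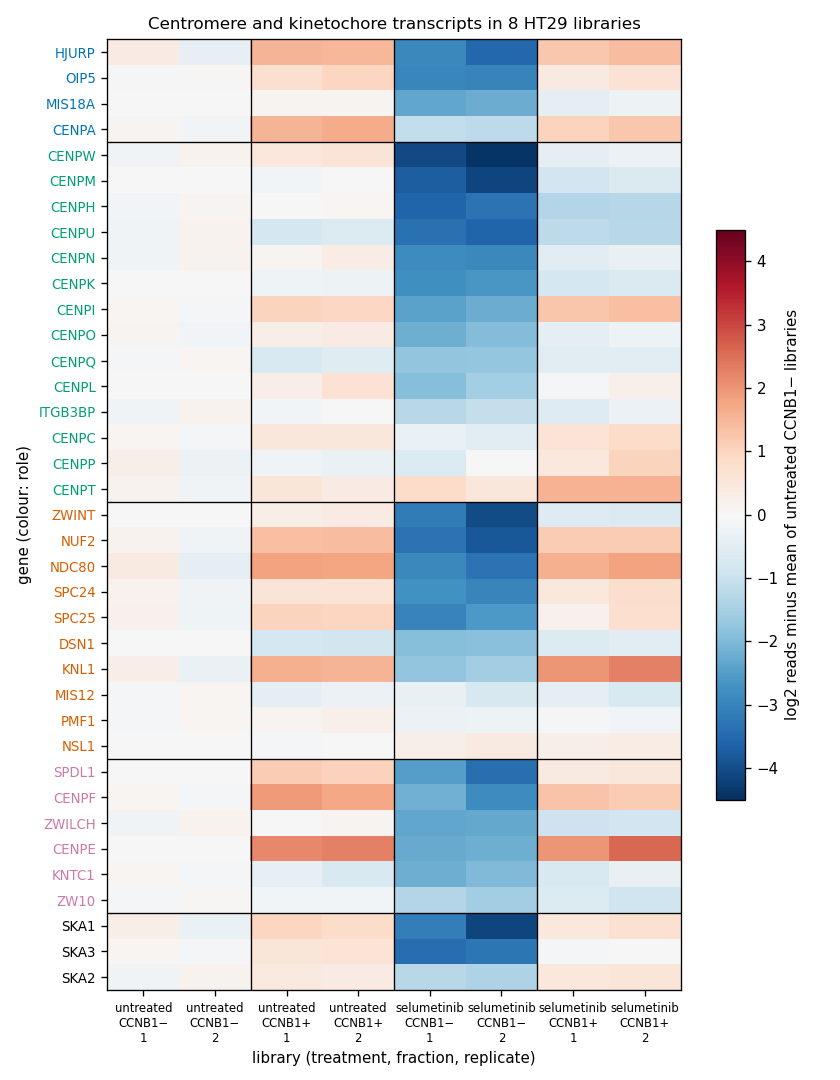
Colour gives the log2 read level of each of the 37 genes (rows, ordered by role and by their change in CCNB1-negative cells) in each of the 8 libraries (columns), minus the mean of the 2 untreated CCNB1-negative libraries. The 2 libraries of treated CCNB1-negative cells hold most of the blue, with NSL1, PMF1, MIS12, CENPC, CENPP and CENPT as the pale or red rows.

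To show the start regions behind the widest spread of changes, the promoters of CENPW and SKA1, the largest falls in treated CCNB1-negative cells among the 31 genes with a RefSeq promoter entry, are printed with those of PMF1 and CENPP, the smallest changes. Each runs from 250 bases before to 50 bases after the annotated start (RefSeq, GRCh38.p14, all 4 on the plus strand), at chr6:126339865-126340164 for CENPW, chr18:50374796-50375095 for SKA1, chr1:156212757-156213056 for PMF1 and chr9:92325218-92325517 for CENPP, which has 3 entries of which the first in the table is shown. Capitals mark the cell cycle homology region (CHR, TTTGAA or TTCGAA), the element through which the DREAM and MYBL2–FOXM1 complexes bind late cell cycle genes, and the CCAAT box (CCAAT), bound by NF-Y, each on either strand.
CENPW: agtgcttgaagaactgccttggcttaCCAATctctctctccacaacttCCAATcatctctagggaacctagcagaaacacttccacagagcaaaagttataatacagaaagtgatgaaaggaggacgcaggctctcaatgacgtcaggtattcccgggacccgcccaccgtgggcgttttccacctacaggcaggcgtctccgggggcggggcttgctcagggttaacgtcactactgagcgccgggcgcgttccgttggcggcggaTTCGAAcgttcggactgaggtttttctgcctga
SKA1: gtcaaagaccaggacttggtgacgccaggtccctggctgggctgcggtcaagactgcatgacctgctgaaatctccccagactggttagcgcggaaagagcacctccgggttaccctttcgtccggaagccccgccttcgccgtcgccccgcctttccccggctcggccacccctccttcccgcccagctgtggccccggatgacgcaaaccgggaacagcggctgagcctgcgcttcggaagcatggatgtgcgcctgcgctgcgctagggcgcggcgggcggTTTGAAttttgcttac
PMF1: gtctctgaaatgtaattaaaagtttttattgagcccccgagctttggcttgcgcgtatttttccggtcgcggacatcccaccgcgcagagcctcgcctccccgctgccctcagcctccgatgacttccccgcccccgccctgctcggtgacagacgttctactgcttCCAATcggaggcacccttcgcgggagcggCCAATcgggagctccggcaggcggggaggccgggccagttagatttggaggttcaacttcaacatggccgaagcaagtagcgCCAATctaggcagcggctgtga
CENPP: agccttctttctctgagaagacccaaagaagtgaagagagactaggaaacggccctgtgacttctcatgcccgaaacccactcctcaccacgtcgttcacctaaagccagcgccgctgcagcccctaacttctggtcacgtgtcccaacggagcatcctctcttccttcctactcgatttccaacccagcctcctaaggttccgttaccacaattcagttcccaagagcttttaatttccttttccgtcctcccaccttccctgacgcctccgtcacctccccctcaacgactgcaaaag

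CENPW and SKA1 each held a CHR downstream of the start, at 17 and 34 bases. PMF1 held 3 CCAAT boxes and no CHR, and the printed window of CENPP held neither motif. A CHR was found in the promoters of 16 of the 31 genes (51.6%), where 16.4% of 35114 promoters of the same length held one. Here and below a gene was counted if any of its entries held the motif, with 36 entries for the 31 genes. The 35114 promoters were counted singly, so the units differ, which can raise the shares of the genes. A CCAAT box was found in 20 of 31 (64.5%) beside 34.6% of all promoters, and both motifs in 11 of 31 (35.5%) beside 6.38%. An E2F motif (TTTCCCGC, TTTCGCGC, TTTGCCGC or TTTGGCGC) was found in 4 of 31 (12.9%), namely CENPA, CENPU, MIS12 and OIP5, beside 3.31%. Motifs of different kinds overlapped in 0.142% of all promoters and in none of these genes. Of the 10 genes with an entry that were higher in untreated CCNB1-positive cells, 8 held a CHR (not CENPE or CENPI), and of the other 21, 8 did. These counts describe letters in a window and were given no test.

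Transcripts for CENPA loading fell in CCNB1-negative cells in 4 of 4 cases, and the histone itself fell least. HJURP, the chaperone that deposits CENPA, had log2 levels (reads scaled to the largest library) of 10.91 and 10.14 in untreated and 7.64 and 6.99 in treated CCNB1-negative libraries, and of 12.04 and 12.03 in untreated and 11.75 and 11.90 in treated CCNB1-positive libraries. Its treated CCNB1-negative libraries lay apart from the other 6, and the untreated CCNB1-negative pair lay under both CCNB1-positive pairs. HJURP fell 9.28-fold in CCNB1-negative cells (−3.21 ± 0.24, adjusted p = 5.3e-08), and its value in CCNB1-positive cells was −0.20 ± 0.24 (adjusted p = 0.46), a difference of responses of 3.01 ± 0.33 (adjusted p = 4.2e-05). CENPA had 9.91 and 9.64 in untreated and 8.66 and 8.59 in treated CCNB1-negative libraries, and 11.32 and 11.45 in untreated and 10.77 and 10.98 in treated CCNB1-positive libraries. No 2 of these 4 pairs overlapped. CENPA fell to 45.0% of its untreated level in CCNB1-negative cells (−1.15 ± 0.15, adjusted p = 1.2e-05) and to 70.3% in CCNB1-positive cells (−0.51 ± 0.15, adjusted p = 0.0097), and the interaction was not called (0.64 ± 0.22, adjusted p = 0.12). It was called under quantile normalization (0.82 ± 0.21, adjusted p = 0.033) and with a replicate block within treatment (0.64 ± 0.16, adjusted p = 0.0072). Within a library the log2 ratio of CENPA to HJURP reads does not depend on a scaling factor for the whole library, although quantile normalization can alter it. This ratio was 1.02 and 1.60 in treated CCNB1-negative cells and between −1 and −0.50 in the other 6 libraries. The CENPA gene model in GENCODE begins far upstream and shares 138 exon bases with SLC35F6 on the same strand, whose own level in treated CCNB1-negative cells was 8.14 and 7.89, so reads of the 2 genes may not be fully separated, and the share of such reads was not tested.

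OIP5 (MIS18B) and MIS18A form the MIS18 complex that marks centromeres for new CENPA. OIP5 fell 7.82-fold and MIS18A 4.88-fold in CCNB1-negative cells. In CCNB1-positive cells MIS18A fell 1.37-fold (adjusted p = 0.024) and the value of OIP5 was −0.31 ± 0.16 (adjusted p = 0.11). The calls of CENPA and MIS18A in CCNB1-positive cells were not stable. CENPA lost its call without untreated replicate 2 (adjusted p = 0.087) or treated replicate 1 (0.095) of that fraction, and MIS18A without either untreated replicate (0.09 and 0.1) or treated replicate 1 (0.18), and both lost it under the nuclear scaling (0.17 and 0.28). OIP5 was 1.80-fold higher in untreated CCNB1-positive cells (adjusted p = 0.011), a call that was lost without untreated CCNB1-negative replicate 1 (0.095) or untreated CCNB1-positive replicate 2 (0.16). The exons of OIP5 (1.201 kb) overlap those of genes on the other strand, among them NUSAP1 and OIP5-AS1. The overlaps sum to 1463 bases, with a base counted once for each gene that overlaps it. NUSAP1 had log2 levels of 11.01 and 10.59 in untreated and 8.69 and 8.69 in treated CCNB1-negative libraries, and 12.58 and 12.71 in untreated and 12.65 and 12.59 in treated CCNB1-positive libraries, and so was lowest in the same pair of libraries as OIP5. OIP5-AS1 had responses of −0.26 and 0.23 in the negative and positive fraction, neither called. Whether reads of the other strand were counted for OIP5 was not tested.

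In the inner kinetochore, 12 of 14 CCAN genes fell in CCNB1-negative cells and changes ran from −4.22 for CENPW to 0.67 for CENPT, which encode histone fold proteins that pair with each other on DNA. CENPW had log2 levels of 9.85 and 10.19 in untreated CCNB1-negative libraries and 5.97 and 5.62 in the treated ones, the latter from 40 and 29 reads (95% Poisson intervals 28.6 to 54.5 and 19.4 to 41.6, counting error alone). In CCNB1-positive cells the same gene had 10.48 and 10.59 untreated and 9.61 and 9.75 treated. CENPW thus fell 18.7-fold in CCNB1-negative cells (−4.22 ± 0.18, adjusted p = 9.2e-10) and 1.81-fold in CCNB1-positive cells (−0.85 ± 0.18, adjusted p = 0.001), and its interaction of 3.37 ± 0.26 (adjusted p = 4.1e-06) was the largest of the 37 genes.

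CENPT rose in both fractions, 1.59-fold in CCNB1-negative cells (0.67 ± 0.17, adjusted p = 0.0026) and 2.15-fold in CCNB1-positive cells (1.11 ± 0.17, adjusted p = 7.1e-05), and its interaction was not called (0.44 ± 0.24, adjusted p = 0.32). With a replicate block within treatment the interaction was called (0.44 ± 0.15, adjusted p = 0.043). The rise was called under each scaling tried. The log2 ratio of CENPW to CENPT reads was 0.51 and 1.19 in untreated CCNB1-negative cells, 0.75 and 1.05 in untreated CCNB1-positive ones, −4.02 and −4.06 in treated CCNB1-negative ones and −1.13 and −0.99 in treated CCNB1-positive ones. CENPW thus had more reads than CENPT without the drug and fewer with it, in both fractions. The exons of CENPT overlap those of genes on the other strand by 1142 bases, summed over these genes.

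CENPP, a subunit of the CENP-O group, changed least of the CCAN genes in CCNB1-negative cells. It had 9.77 and 9.24 in untreated and 8.89 and 9.53 in treated CCNB1-negative libraries, pairs that overlap, and 9.34 and 9.22 in untreated and 9.99 and 10.49 in treated CCNB1-positive libraries, pairs that do not. Its change was −0.29 ± 0.23 (adjusted p = 0.27) in CCNB1-negative cells, where its sign flipped with the scaling, and it rose 1.95-fold in CCNB1-positive cells (0.96 ± 0.23, adjusted p = 0.0026). The interaction (1.25 ± 0.33, adjusted p = 0.043) was lost on leaving out any of 5 libraries, both untreated CCNB1-positive ones, replicate 1 of both CCNB1-negative groups and treated CCNB1-positive replicate 2 (adjusted p 0.068 to 0.17), and under quantile normalization (0.061) and the nuclear scaling (0.087). The exons of CENPP overlap those of IPPK and an unnamed gene on the other strand by 4028 bases, summed over both genes. IPPK fell in both fractions (−1.05 and −0.74).

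The other CCAN genes followed their subgroups in part. CENPM, CENPH, CENPK and CENPI, which form 1 subcomplex, fell by 3.91, 3.48, 2.70 and 2.31 on the log2 scale in CCNB1-negative cells. CENPH fell 2.49-fold (−1.32 ± 0.17, adjusted p = 1.5e-05), the largest fall of the 37 genes in CCNB1-positive cells, where CENPM fell 1.61-fold and CENPK 1.42-fold. CENPI had 0.34 ± 0.18 (adjusted p = 0.11) and was the 1 member of the CCAN that was called higher in untreated CCNB1-positive cells (0.96 ± 0.18, adjusted p = 0.0065). That call was lost without untreated CCNB1-negative replicate 2 (0.87 on the log2 scale). CENPK was not called in CCNB1-positive cells without treated replicate 1 (adjusted p = 0.066).

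CENPN and CENPL, which bind the CENPA nucleosome as a pair, fell 7.29-fold and 3.28-fold in CCNB1-negative cells, and CENPN shares exon bases with a gene on its own strand. CENPL had an interaction of 1.32 ± 0.29 (adjusted p = 0.014) that was lost without untreated CCNB1-positive replicate 1 (0.074) or treated CCNB1-positive replicate 2 (0.077). In the CENP-O group, CENPU fell by 3.48, CENPO by 2.08, CENPQ by 1.75 and ITGB3BP (CENPR) by 1.17 on the log2 scale in CCNB1-negative cells, so that with CENPP this 1 assembly of 5 spread over 3.19 log2 units. CENPC, the scaffold that links CENPA chromatin to the MIS12 complex, fell 1.31-fold (−0.39 ± 0.16, adjusted p = 0.04), and the call was lost on leaving out any library but treated CCNB1-negative replicate 1 (adjusted p 0.052 to 0.19) and under the nuclear scaling (0.68).

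CENPU was lower in untreated CCNB1-positive than CCNB1-negative cells. Its levels were 10.35 and 10.66 in untreated CCNB1-negative and 9.73 and 9.88 in untreated CCNB1-positive libraries, without overlap, and 7.14 and 6.91 against 9.32 and 9.26 with the drug, the order turned. The untreated difference was −0.70 ± 0.17 (adjusted p = 0.041) and the treated one 2.26 ± 0.17 (adjusted p = 2.7e-07). The untreated call was lost on leaving out any library but those of treated CCNB1-negative cells (adjusted p 0.06 to 0.35).

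The outer kinetochore was uneven in CCNB1-negative cells, where 8 of 10 KMN genes fell and 2 (NSL1 and PMF1) did not pass the test. The 4 subunits of the NDC80 complex, the rod that grips microtubules, moved within 0.75 log2 units of each other. NUF2 had 9.47 and 9.17 in untreated and 6.01 and 5.52 in treated CCNB1-negative libraries, the latter from 41 and 27 reads, and 10.67 and 10.70 in untreated and 10.48 and 10.47 in treated CCNB1-positive libraries. Its treated CCNB1-negative pair lay far under all others. NUF2 fell 11.8-fold in CCNB1-negative cells (−3.56 ± 0.19, adjusted p = 3.9e-09), with −0.22 ± 0.19 (adjusted p = 0.33) in CCNB1-positive cells and an interaction of 3.34 ± 0.27 (adjusted p = 4.5e-06). NDC80, SPC24 and SPC25 fell 8.64-fold, 7.23-fold and 6.99-fold in CCNB1-negative cells. Of the 4, SPC25 alone was called in CCNB1-positive cells (−0.52 ± 0.21, adjusted p = 0.044), and that call was lost without either untreated replicate (0.12 and 0.11) or treated replicate 1 (0.4) of that fraction and under the nuclear scaling (0.3). NDC80 was 28.1-fold higher in CCNB1-positive than CCNB1-negative cells under the drug, the widest gap of the 37 genes, and 3.45-fold higher without it.

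In the MIS12 complex, which joins the CCAN to the NDC80 complex, DSN1 fell 3.74-fold in CCNB1-negative cells (−1.90 ± 0.14, adjusted p = 5.5e-08) and its partners changed little. PMF1 had 10.68 and 10.84 in untreated and 10.50 and 10.53 in treated CCNB1-negative libraries, and 10.89 and 10.98 in untreated and 10.72 and 10.62 in treated CCNB1-positive libraries. NSL1 had 8.90 and 8.84, 9.12 and 9.26, 8.79 and 8.87, and 9.14 and 9.20 in the same order. MIS12 had 9.08 and 9.24, 8.82 and 8.45, 8.76 and 8.88, and 8.75 and 8.48. All 3 genes stayed within 1 log2 unit over the 8 libraries.

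PMF1 responded by −0.24 ± 0.14 in the negative and −0.26 ± 0.14 in the positive fraction, with an interaction of −0.02 (95% interval −0.44 to 0.40). Those of NSL1 were 0.32 ± 0.16 and 0.34 ± 0.16, with an interaction of 0.02 (−0.46 to 0.49), and both NSL1 responses were called higher under the nuclear scaling (adjusted p = 0.0028 and 0.0056). MIS12 fell 1.44-fold in CCNB1-negative cells (adjusted p = 0.019), a call lost without replicate 2 of either CCNB1-negative group (0.11 untreated, 0.14 treated), under the nuclear scaling (0.3) and with limma-voom (0.071), and had an interaction of 0.32 (−0.24 to 0.88). These were the lowest 3 interactions of the 37 genes, and the same 3 genes were the only ones not called between the treated fractions. PMF1 shares 587 exon bases on its own strand with the read-through gene PMF1-BGLAP, whose responses were −0.21 and −0.22, so the 2 cannot be told apart here.

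DSN1, like CENPU, was lower in untreated CCNB1-positive cells. It had 10.77 and 10.79 in untreated CCNB1-negative, 10 and 9.95 in untreated CCNB1-positive, 8.85 and 8.90 in treated CCNB1-negative and 10.17 and 10.29 in treated CCNB1-positive libraries, 4 pairs without overlap. The untreated difference was −0.81 ± 0.14 (adjusted p = 0.0043, or 0.061 without untreated CCNB1-positive replicate 2) and the treated one 1.35 ± 0.14 (adjusted p = 9.6e-06). Within a library, the log2 ratio of DSN1 to NSL1 reads was 1.87 and 1.95 in untreated CCNB1-negative cells, −0.26 and −0.36 in treated CCNB1-negative cells and between 1.03 and 1.20 in all CCNB1-positive libraries.

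KNL1, the arm that docks the BUB checkpoint proteins, and its partner ZWINT went apart in CCNB1-positive cells. KNL1 had 9.41 and 8.81 in untreated and 7.34 and 7.56 in treated CCNB1-negative libraries, and 10.70 and 10.65 in untreated and 11.09 and 11.37 in treated CCNB1-positive libraries. ZWINT had 11.66 and 11.62, and 8.50 and 7.63, in the former and 11.89 and 12.00, and 11.07 and 10.98, in the latter. Both dropped in treated CCNB1-negative cells, and in treated CCNB1-positive cells KNL1 lay above and ZWINT under the untreated pair. KNL1 was the 1 gene called in opposite directions, with −1.67 ± 0.19 (adjusted p = 3.6e-06) in CCNB1-negative and 0.55 ± 0.19 (adjusted p = 0.022) in CCNB1-positive cells. Its rise was lost without either untreated replicate (adjusted p = 0.057 and 0.091) or treated replicate 2 (0.17) of the CCNB1-positive fraction. ZWINT fell 11.9-fold (−3.58 ± 0.21, adjusted p = 9.2e-09) and 1.90-fold (−0.93 ± 0.21, adjusted p = 0.0018). The log2 ratio of KNL1 to ZWINT reads went from −1.19 and −1.36 in untreated to 0.02 and 0.40 in treated CCNB1-positive libraries.

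**Figure D2:**
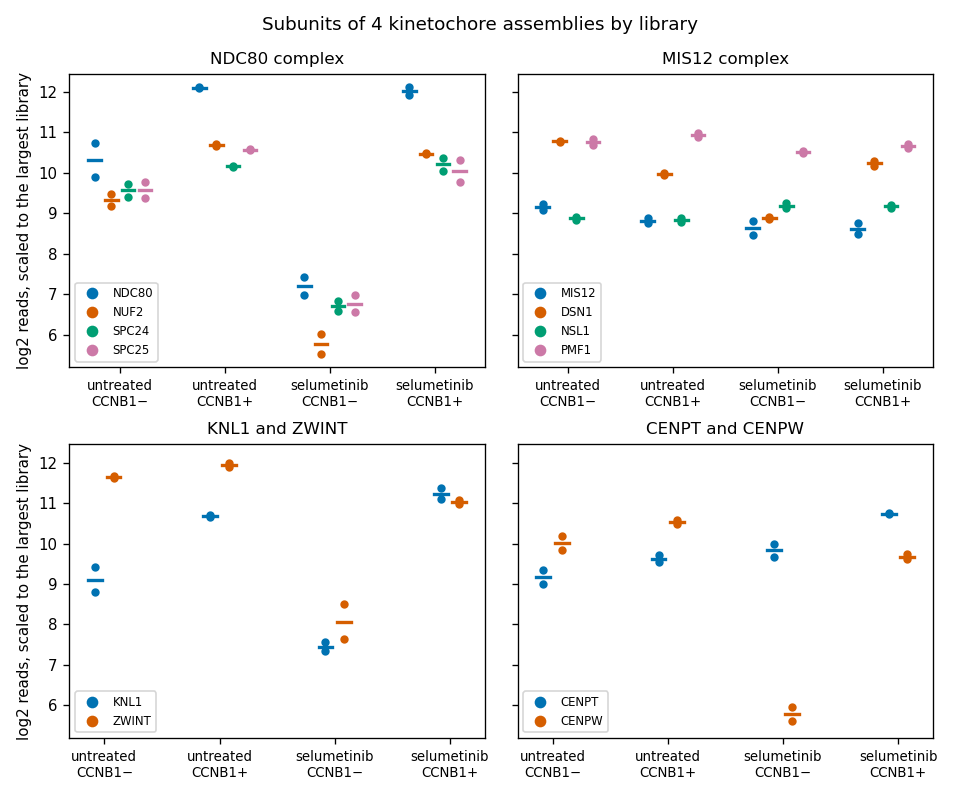
Points are the log2 read levels, scaled to the largest library, of each subunit in each of the 2 libraries of the 4 groups, and bars are the means of the pair. NDC80 complex subunits drop together in treated CCNB1-negative cells, DSN1 drops while MIS12, NSL1 and PMF1 stay within 1 log2 unit, KNL1 ends above ZWINT in treated CCNB1-positive cells, and CENPW drops while CENPT rises.

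Corona genes fell in CCNB1-negative cells in 6 of 6 cases, and the motor CENPE and the large coiled-coil protein CENPF had the widest gaps between untreated fractions. SPDL1, which recruits dynein to the corona, had 9.57 and 9.56 in untreated and 7.08 and 6.19 in treated CCNB1-negative libraries and 10.70 and 10.60 in untreated and 9.96 and 10.07 in treated CCNB1-positive libraries. It fell 7.63-fold in CCNB1-negative cells (−2.93 ± 0.23, adjusted p = 8.5e-08), the most in the corona. Its fall in CCNB1-positive cells (−0.64 ± 0.23, adjusted p = 0.024) was lost without any 1 of the 4 CCNB1-positive libraries (0.054 to 0.1), and its higher level in untreated CCNB1-positive cells (1.09 ± 0.23, adjusted p = 0.017) without any 1 of the 4 untreated libraries (0.061 to 0.081).

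The RZZ subunits ZW10, ZWILCH and KNTC1 (ROD) fell 2.71-fold, 5.03-fold and 4.25-fold in CCNB1-negative cells and between the untreated fractions the differences were −0.11 ± 0.16 for ZW10, 0.04 ± 0.16 for ZWILCH and −0.52 ± 0.17 for KNTC1 (adjusted p = 0.87, 0.96 and 0.16). ZW10, which also serves in membrane traffic, had 10.05 and 10.17 in untreated and 8.80 and 8.54 in treated CCNB1-negative libraries and 9.99 and 10 in untreated and 9.49 and 9.20 in treated CCNB1-positive libraries, so both treated pairs lay under both untreated pairs. Its responses were −1.44 ± 0.16 and −0.65 ± 0.16 (adjusted p = 2.8e-06 and 0.0033), with an interaction of 0.79 ± 0.23 that was not called (adjusted p = 0.068). With a replicate block within treatment the interaction was called (0.79 ± 0.15, adjusted p = 0.0011). The call in CCNB1-positive cells had adjusted p = 0.052 without treated replicate 2. ZWILCH fell 1.92-fold in CCNB1-positive cells (−0.94 ± 0.16, adjusted p = 0.00015), and KNTC1 had 0.02 ± 0.17 (adjusted p = 0.91).

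CENPE fell 4.72-fold and CENPF 5.63-fold in CCNB1-negative cells. In CCNB1-positive cells CENPE had 0.06 ± 0.18 (adjusted p = 0.77), and CENPF fell 1.54-fold (−0.62 ± 0.20, adjusted p = 0.012), which was lost without untreated replicate 1 (0.069) or treated replicate 2 (0.073) of that fraction and under the nuclear scaling (0.12). Without the drug CENPE was 4.68-fold and CENPF 3.55-fold higher in CCNB1-positive than CCNB1-negative cells, the 2 largest such differences of the 37 genes. With it they were 23.1-fold and 13.0-fold higher. CENPF had the most reads of the 37 genes in 1 library, 9034 in untreated CCNB1-positive replicate 1.

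The SKA complex, which keeps the NDC80 complex on shrinking microtubules, fell in CCNB1-negative cells in 3 of 3 genes, with SKA2 least. SKA1 had 8.77 and 8.17 in untreated and 5.35 and 4.35 in treated CCNB1-negative libraries and 9.43 and 9.31 in untreated and 8.96 and 9.15 in treated CCNB1-positive libraries. The treated CCNB1-negative values stand on 26 and 12 reads (95% Poisson intervals 17.0 to 38.1 and 6.2 to 21.0), the lowest counts of any member. SKA1 fell 12.3-fold in CCNB1-negative cells (−3.62 ± 0.29, adjusted p = 1.2e-07), with an interaction of 3.31 ± 0.41 (adjusted p = 0.00013). SKA2 had 10.12 and 10.43 in untreated and 9.02 and 8.87 in treated CCNB1-negative libraries and 10.72 and 10.66 in untreated and 10.76 and 10.81 in treated CCNB1-positive libraries. It fell 2.52-fold in CCNB1-negative cells (−1.33 ± 0.15, adjusted p = 2.7e-06) and had 0.09 ± 0.15 (adjusted p = 0.60) in CCNB1-positive cells. SKA3 fell 10.1-fold in CCNB1-negative and 1.52-fold in CCNB1-positive cells (adjusted p = 0.0034, or 0.064 under the nuclear scaling).

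**Figure D3:**
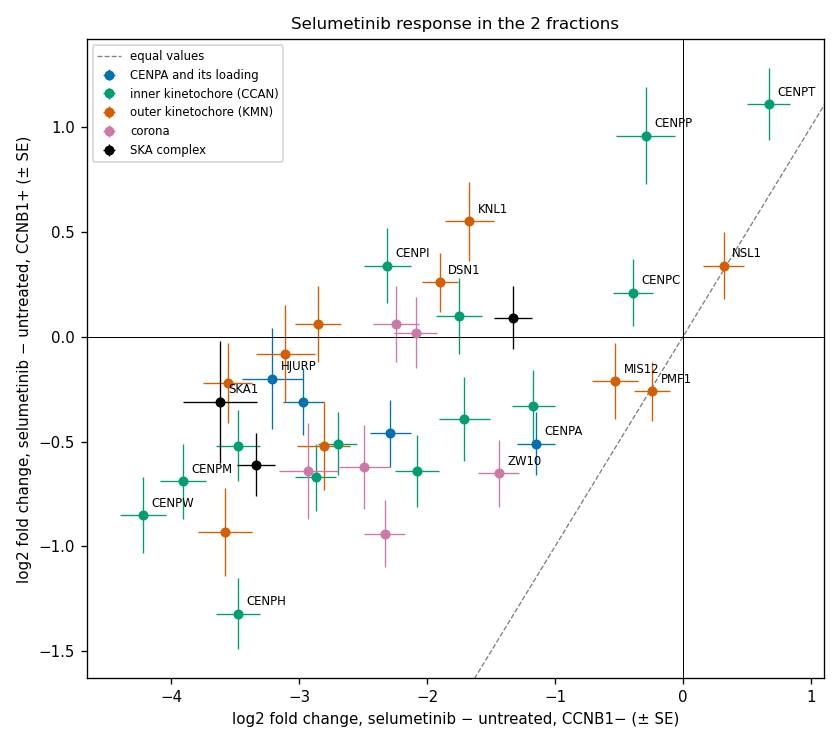
Each point is 1 of the 37 genes, with its log2 fold change under selumetinib in CCNB1-negative cells on the x axis and in CCNB1-positive cells on the y axis, bars showing SE and colour the role. The x values reach −4.22 (CENPW), whereas all y values but those of CENPH (−1.32) and CENPT (1.11) lie between −1 and 1, and PMF1 and NSL1 lie near the dashed line of equal values.

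Across roles, 7 genes fell in CCNB1-positive cells under each scaling tried (CENPH, CENPM, CENPN, CENPW, ZWINT, ZW10 and ZWILCH) and 3 rose under each (CENPP, CENPT and KNL1). The sign of the response there flipped between scalings for 5 (HJURP, CENPQ, NDC80, NUF2 and MIS12). Of the 16 genes that fell in CCNB1-positive cells, 8 stayed called whichever of the 8 libraries was left out, and of the 33 that fell in CCNB1-negative cells, 31 did. CENPU, another of the 16, had −0.52 ± 0.17 (adjusted p = 0.015), which was lost without replicate 2 of either CCNB1-positive group (0.11 untreated, 0.077 treated) and under the nuclear scaling (0.16), where CENPK and CENPO were also lost (0.15 and 0.067).

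Of the 11 genes higher in untreated CCNB1-positive cells, 7 stayed called on leaving out each library, and they encode CENPA, HJURP, NDC80, NUF2, KNL1, CENPE and CENPF. SPC25 (1.00 ± 0.21, adjusted p = 0.018) was lost without either untreated CCNB1-positive replicate (0.06 and 0.088) or untreated CCNB1-negative replicate 2 (0.18). By role, the higher genes were 3 of 4 for CENPA and its loading, 1 of 14 in the CCAN, 4 of 10 in the KMN network, 3 of 6 in the corona and 0 of 3 in the SKA complex by limma on log2 values. For the SKA genes, 3 of 3 were at an unadjusted p under 0.05 and limma-voom called 2. For the CCAN, 5 of 14 were at an unadjusted p under 0.05 and limma-voom called 1. With a replicate block within treatment, limma also called CENPC, CENPL, CENPT and CENPW of the CCAN higher (adjusted p 0.0089 to 0.038). The same fit called SKA1 (0.011), SKA2 (0.017), SKA3 (0.0027) and SPC24 (0.0096) higher. Without the block, limma called SKA1 and SKA3 higher when either treated CCNB1-negative replicate was left out (0.04 to 0.043). In treated cells the counts were 4 of 4, 14 of 14, 7 of 10, 6 of 6 and 3 of 3. Of the 34 genes higher in treated CCNB1-positive cells, 31 stayed called on leaving out each library. CENPP was lost without treated CCNB1-negative replicate 1 (0.051) or treated CCNB1-positive replicate 2 (0.08), ITGB3BP without the latter (0.074), and ZW10 without treated CCNB1-negative replicate 2 (0.089) or treated CCNB1-positive replicate 1 (0.13).

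**Figure D4:**
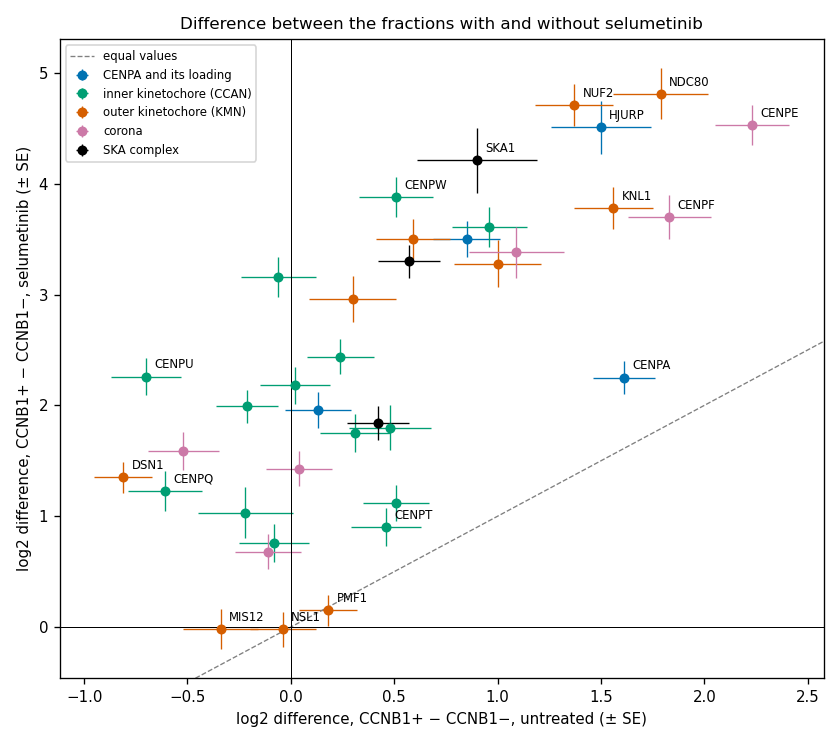
Each point is 1 of the 37 genes, with the log2 difference between CCNB1-positive and CCNB1-negative cells in untreated cells on the x axis and in selumetinib-treated cells on the y axis, bars showing SE and colour the role. PMF1, NSL1 and MIS12 lie near 0 on the y axis and the other genes between 0.68 and 4.81, and DSN1 and CENPU lie to the left of 0 on x.

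Levels per kilobase of exon spread widely within the network. In untreated CCNB1-negative cells ZWINT, CENPW and CENPM had mean levels of 56.3, 51.1 and 31.6 RPKM (reads scaled to exon length and library size), and NSL1, CENPI and KNL1 had 1.41, 2.09 and 2.31. In treated CCNB1-negative cells PMF1 (24.3), CENPA (8.49) and DSN1 (7.18) were at the top and CENPI (0.421), SKA1 (0.441) and NUF2 (0.685) at the bottom. In treated CCNB1-positive cells NDC80 (48.9), CENPA (40.4), CENPW (40.2) and HJURP (39.8) led. The lengths are merged GENCODE exons, which for NSL1 hold 13.867 kb, so these levels are approximate.

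A further 35 genes that act at centromeres and kinetochores were listed, of which 34 passed the filter. In CCNB1-negative cells 27 fell and 4 rose, with a median of −1.94, against 35.8% lower and 38.2% higher of all genes tested. In CCNB1-positive cells 22 fell and 4 rose, with a median of −0.54, against 27.3% and 38%. The largest falls in CCNB1-negative cells were those of MAD2L1 and BUB1, of the spindle checkpoint, at −4.51 and −4.05, and the largest rises those of CLASP1 and CLIP1, microtubule plus-end proteins, at 1.79 and 1.39. Between fractions, 17 were higher in untreated and 25 in treated CCNB1-positive cells (medians 0.66 and 1.92), against 1.36% and 13.8% of all genes, and 19 had a called positive interaction (median 1.02), against 4.99%.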

How the data were processed

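Per the submitters' processing notes and methods, reads of the directional poly(A) libraries were trimmed with Trim Galore 0.5.0, mapped to GRCh38 with HISAT2 2.1.0 and counted in SeqMonk, normalised to total reads. Whether counting used the strand is not given in the sources used here. The deposited values are log2 reads per gene, which the authors scaled to the largest library, with genes without reads set at 0.9 reads before scaling. In each library 100% of genes gave whole reads. The tolerance was 0.01 reads for genes with few reads and widened with the reads of a gene, so the check could not fail for the highest genes. Genes with a mean of 1 RPM or more were tested with limma 3.58.1 (R 4.3.3) with a mean-variance trend and 1 coefficient for each of 4 groups of 8 libraries. Benjamini-Hochberg adjustment ran over all 14219 genes, and the threshold was 0.05. Since no file held counts as deposited, limma-voom on the recovered reads was an alternative alone. The script was tested on simulated data. Replicates within a group differed by more than sampling noise (chi-square per gene 15.6 to 30.2).

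All 37 genes are named. Values per library are given for the largest and smallest change in CCNB1-negative cells within each role, for genes called in opposite directions and for the 3 highest and 3 lowest interactions; per-library values of DSN1 and CENPU and the read ratios were added after the values were seen. Members and lists were chosen with earlier results of these data known. Alternatives were the p threshold, 2-fold change, filters, quantile and nuclear scaling, a pseudocount, replicate block, groups in the fit, limma-voom and leaving out each library. Promoter motifs were searched in RefSeq windows (GRCh38.p14); CENPH, CENPL, CENPM, KNL1, KNTC1 and MIS18A had no entry.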

Additional observations from a re-analysis of the deposited data

Results flagged for a closer look

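Responses to selumetinib differed between the fractions, by an interaction term, in 29 of the 37 genes, and all of these differences were positive. The difference of the log2 responses (CCNB1-positive minus CCNB1-negative) was 3.01 for HJURP, 2.66 for OIP5 and 1.83 for MIS18A among the genes for CENPA loading. In the inner kinetochore it was 3.37 for CENPW, 3.22 for CENPM, 2.96 for CENPU, 2.65 for CENPI, 2.20 for CENPN, 2.20 for CENPK, 2.16 for CENPH, 1.84 for CENPQ, 1.44 for CENPO, 1.32 for CENPL and 1.25 for CENPP. In the outer kinetochore it was 3.34 for NUF2, 3.03 for NDC80, 2.91 for SPC24, 2.65 for ZWINT, 2.29 for SPC25, 2.22 for KNL1 and 2.16 for DSN1. In the corona it was 2.30 for CENPE, 2.29 for SPDL1, 2.11 for KNTC1, 1.87 for CENPF and 1.39 for ZWILCH, and in the SKA complex 3.31 for SKA1, 2.74 for SKA3 and 1.43 for SKA2. Groups of 2 libraries allowed no search for a library far from the others.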

How the results depend on the processing

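No median over the listed genes, called or not, changed sign under any alternative. A count of called genes has no sign to change. The larger shifts of counts are given here, and smaller shifts are not all listed. Quantile normalization gave medians of −2.49 (response of CCNB1-negative cells), 2.56 (fractions, treated) and 2.41 (interaction) and 1 gene lower in untreated CCNB1-positive cells. Scaling to nuclear genes without MALAT1 gave 2 higher and a median of −1.99 in CCNB1-negative cells, 7 rises, 7 falls and a median of −0.06 in the positive fraction, and a median of 2.17 between treated fractions. Limma-voom gave 2 higher (median −2.16) and 6 higher (median −0.21) in the responses. Counts over all genes tested under the nuclear scaling and limma-voom are given with the responses above. Fitting only the groups compared, or an adjusted p under 0.01, left 1 gene lower in untreated CCNB1-positive cells. At an adjusted p under 0.01, CCNB1-positive cells also lost the falls of CENPF, CENPU, MIS18A, SPC25 and SPDL1 and the rise of KNL1. The falls of CENPC and MIS12 in CCNB1-negative cells and the interactions of CENPL and CENPP were lost too. Of the genes higher in CCNB1-positive cells, OIP5, SPC25 and SPDL1 were lost in untreated and ZW10 in treated cells. Requiring 2-fold left 0 rises in CCNB1-negative cells, 1 rise and 1 fall in the positive fraction and 0 lower between untreated fractions, since smaller changes are then not counted. The cause of the other shifts was not tested.

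Leaving out 1 library gave 31 to 33 lower and 1 to 1 higher (medians −2.33 to −2.23) in CCNB1-negative cells, 11 to 16 lower and 2 to 3 higher (−0.43 to −0.22) in the positive fraction, 8 to 13 higher and 0 to 2 lower (0.30 to 0.42) between untreated fractions, 32 to 34 higher and 0 to 0 lower (2.17 to 2.28) between treated fractions, and 27 to 29 higher and 0 to 0 lower interactions (2.01 to 2.26).

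The labels do not say that replicate numbers pair libraries, and with 2 libraries a group this cannot be settled from the data. Deviations of same-numbered libraries correlated at 0.35 and 0.43 between the fractions of 1 treatment and between −0.09 and 0.08 elsewhere. With a replicate block, 17 genes fell in CCNB1-positive cells, ITGB3BP being added (adjusted p = 0.041), and the other counts were as given, although the interaction of CENPP was lost (0.055) and that of ITGB3BP gained (0.022). With a replicate block within treatment, 19 were higher and 4 lower between untreated fractions, CENPQ (−0.61 ± 0.14, adjusted p = 0.0064) and KNTC1 (−0.52 ± 0.10, adjusted p = 0.0018) joining DSN1 and CENPU, and 34 had a called interaction. Depth limits the lowest members, SKA1 at 12 reads and NUF2 at 27.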
